A study of Mus musculus with 6 samples.

Results

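Upstream promoter probes of single genes were described in mouse embryonic stem cells across chromatin immunoprecipitations with 3 SMAD antibodies. They are the probes that the array annotation assigns to the upstream side of 1 gene, as opposed to probes inside genes, between divergently transcribed genes, downstream of genes or of unknown class. By this rule 239612 of 474380 experimental probes (50.5%) were members, 118924 of 237195 on array 1 and 120688 of 237185 on array 2. No measured signal entered the choice. By the start sites listed in the array files, all 239612 probes lay upstream of the start of their own gene. Where a gene name had several starts, the nearest one downstream of the probe was used. Label and start sites come from the same array annotation, so this is no independent check of the label. The distance was 1 to 9997 bp with a median of 2275 bp, and 98.9% of the probes lay within 6000 bp. Of all promoter probes, 22.0% were nearer to another listed start than to their own. They carried 14267 gene names, 14049 of RefSeq transcripts and 218 of miRNAs, which became 14239 genes after names were updated. A gene had a median of 17 promoter probes, spaced a median of 182 bp apart and each 45 to 60 bases long. Proximal probes are those less than 1000 bp upstream (61437 probes) and distal probes those more than 3000 bp upstream (90878 probes).

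The cells were undifferentiated murine R1 cells, an embryonic stem cell line, grown without feeder cells and with leukemia inhibitory factor (LIF), which keeps mouse stem cells undifferentiated, and knockout serum replacement. Chromatin was immunoprecipitated with antibodies raised against the linker regions of human SMAD1 (named anti-SMAD1/5), SMAD2 or SMAD4. The immunoprecipitate, labelled with Cy5, was hybridised with whole cell extract DNA (the input), labelled with Cy3, to Agilent mouse promoter arrays without a dye swap. There was 1 biological replicate per antibody, hybridised to 2 arrays that carry different probes. All values are therefore single measurements, and no difference between antibodies or between genes could be set against a replicate. Standard errors (SE) below are over genes, and SDs are over the probes of a gene. Neither is an error of the experiment. The number of arrays limits the precision.

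SMAD1 and SMAD5 are receptor-activated transcription factors of the bone morphogenetic protein (BMP) branch of the TGF-beta family, and SMAD2 belongs to the Activin and Nodal branch. SMAD4 is the common partner that joins both. The activated complexes enter the nucleus and bind DNA weakly, by the SMAD-binding element CAGAC and, for SMAD1 and SMAD5, by GC-rich elements such as GGCGCC, mostly beside other transcription factors. In mouse embryonic stem cells BMP signalling is known for inducing the Id genes alongside LIF, and Nodal signalling for inducing its own inhibitors Lefty1 and Lefty2.

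The values are log2 ratios of immunoprecipitate over input, centred on each array's median, so that 0 is the middle probe of the array and 1 is a 2-fold higher ratio. Each channel is given on the same scale, as log2 signal centred on its array's median. The SMAD1/5 arrays stood apart. Their input channel was dim, with a median signal 2.30 and 2.66 times the local background, against 6.46 to 6.99 times with SMAD2 and 4.75 to 5.03 times with SMAD4. On arrays 1 and 2 the extraction software had replaced 29.9% and 14.3% of SMAD1/5 input signals by a stand-in value because they were too dim. These shares were 12.4% and 15.2% for SMAD2 and 0.468% and 0.423% for SMAD4. The SD of the log2 ratio over probes was 1.93 and 1.75 with SMAD1/5, 0.94 and 0.92 with SMAD2 and 1.01 and 1.00 with SMAD4. The SMAD4 arrays were extracted with a different version and protocol of the software, so that extraction and antibody cannot be told apart for SMAD4.

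Genes were ranked by the lowest of their 3 standardised proximal means, and the first with an entry have a printed promoter sequence. Promoter sequences are also printed for the genes with the highest proximal ratio with each antibody and for a known target of each branch. They run from 250 bases before to 50 bases after the annotated start, 5′ to 3′ on the gene's strand, from RefSeq on GRCm38.p6. Capitals mark every match to CAGAC or its reverse complement GTCTG, to the palindrome GTCTAGAC and to the palindrome GGCGCC. Both strands were searched, and GTCTAGAC contains no full CAGAC. These coordinates are those of the sequence table. They were not compared with the probe positions, whose build the sources used here do not state. Sh2d2a and Ptges3l, also leading in the rank over all antibodies, are named without a sequence. Id2 and Nodal were added after values were seen, as the first known target of each branch with an entry. Klhl26 (chr8:70476896-70477195, minus strand) had the highest proximal mean among genes with at least 4 proximal probes with SMAD1/5, Fam124b (chr1:80213895-80214194, minus) with SMAD2 and Spink2 (chr5:77211156-77211455, minus) with SMAD4. Sesn2 (chr4:132510407-132510706, minus), Fgf7 (chr2:126034408-126034707, plus) and Ifih1 (chr2:62646206-62646505, minus) were among the leading genes of the rank over all 3. This rank does not require a mean of 1 with each antibody, and their SMAD2 means were 0.77, 0.76 and 0.89. Id2 lies at chr12:25096043-25096342 (minus) and Nodal at chr10:61417722-61418021 (plus).
Klhl26: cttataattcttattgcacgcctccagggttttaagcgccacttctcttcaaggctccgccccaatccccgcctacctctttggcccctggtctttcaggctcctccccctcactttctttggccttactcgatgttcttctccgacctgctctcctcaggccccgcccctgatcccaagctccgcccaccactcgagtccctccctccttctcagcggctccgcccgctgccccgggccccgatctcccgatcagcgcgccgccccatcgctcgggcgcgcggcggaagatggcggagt
Fam124b: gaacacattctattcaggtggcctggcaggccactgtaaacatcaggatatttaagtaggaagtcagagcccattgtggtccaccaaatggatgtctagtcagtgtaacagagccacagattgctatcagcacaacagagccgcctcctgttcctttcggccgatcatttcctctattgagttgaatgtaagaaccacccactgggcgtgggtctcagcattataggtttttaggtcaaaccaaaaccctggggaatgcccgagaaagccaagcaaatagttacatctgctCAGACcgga
Spink2: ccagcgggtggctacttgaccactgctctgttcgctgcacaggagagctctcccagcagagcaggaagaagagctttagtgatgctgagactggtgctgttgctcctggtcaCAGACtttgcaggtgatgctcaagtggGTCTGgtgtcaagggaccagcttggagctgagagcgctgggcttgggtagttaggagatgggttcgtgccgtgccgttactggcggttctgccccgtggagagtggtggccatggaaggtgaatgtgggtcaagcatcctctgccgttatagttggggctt
Sesn2: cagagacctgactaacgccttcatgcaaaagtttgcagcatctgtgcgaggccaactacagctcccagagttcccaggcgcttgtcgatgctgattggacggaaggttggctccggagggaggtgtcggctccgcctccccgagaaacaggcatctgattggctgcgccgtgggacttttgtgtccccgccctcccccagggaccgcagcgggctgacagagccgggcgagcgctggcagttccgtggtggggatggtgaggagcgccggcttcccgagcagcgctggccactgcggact
Fgf7: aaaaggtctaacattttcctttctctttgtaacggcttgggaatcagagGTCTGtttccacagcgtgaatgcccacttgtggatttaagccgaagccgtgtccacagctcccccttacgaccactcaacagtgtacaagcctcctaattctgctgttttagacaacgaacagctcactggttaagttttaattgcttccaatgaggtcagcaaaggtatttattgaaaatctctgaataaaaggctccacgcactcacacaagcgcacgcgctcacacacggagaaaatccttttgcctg
Ifih1: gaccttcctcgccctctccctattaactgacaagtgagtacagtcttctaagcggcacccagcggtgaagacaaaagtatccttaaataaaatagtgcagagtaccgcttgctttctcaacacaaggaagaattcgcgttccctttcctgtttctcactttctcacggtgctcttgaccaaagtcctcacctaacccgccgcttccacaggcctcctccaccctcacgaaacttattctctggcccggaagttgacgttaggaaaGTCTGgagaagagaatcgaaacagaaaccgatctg
Id2: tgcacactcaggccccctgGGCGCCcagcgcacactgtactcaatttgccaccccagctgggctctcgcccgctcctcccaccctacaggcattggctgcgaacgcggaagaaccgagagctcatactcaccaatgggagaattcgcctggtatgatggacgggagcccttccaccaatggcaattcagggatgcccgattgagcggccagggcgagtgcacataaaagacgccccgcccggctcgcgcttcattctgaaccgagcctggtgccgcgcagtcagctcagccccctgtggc
Nodal: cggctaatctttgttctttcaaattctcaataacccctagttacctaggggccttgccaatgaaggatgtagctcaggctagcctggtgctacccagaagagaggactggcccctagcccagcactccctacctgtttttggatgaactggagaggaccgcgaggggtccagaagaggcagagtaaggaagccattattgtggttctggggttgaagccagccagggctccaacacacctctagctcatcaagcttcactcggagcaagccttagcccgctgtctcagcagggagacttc
The Klhl26, Sesn2 and Nodal stretches held none of these motifs. Fam124b, Fgf7 and Ifih1 had 1 CAGAC match each and Spink2 had 2, while Id2 had 1 GGCGCC match. Of all 32851 promoters of this length in the table, 49.6% held CAGAC, 11.9% held GGCGCC and 0.213% held GTCTAGAC. A match is a description of letters and not a site.

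Signal in both channels was highest next to the start site with each antibody. At promoter probes within 250 bp of the start, the immunoprecipitate averaged 0.14 with SMAD1/5, 0.53 with SMAD2 and 0.25 with SMAD4. Over 3000 to 4000 bp upstream it averaged -0.48, -0.21 and -0.42 in the same order. The input followed the same course. Within 250 bp it averaged 1.26 with SMAD1/5, 0.43 with SMAD2 and 0.39 with SMAD4, and over 3000 to 4000 bp it averaged 0.31, -0.25 and -0.47. Neither channel changed by more than 0.1 between 3000 bp and the last interval, over 5000 bp, where the immunoprecipitate averaged -0.44, -0.19 and -0.40.

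The ratio of the channels took a different course with each antibody. With SMAD1/5 the mean ratio was lowest next to the start, at -0.56 ± 0.014 within 250 bp (SE over 12443 genes), -0.29 between 250 and 500 bp and -0.18 between 500 and 1000 bp. It was -0.17 from 1000 to 1500 bp and -0.26 beyond 5000 bp, so it peaked away from the start. The SMAD1/5 median showed the same dip, at -0.60 within 250 bp, and stood at 0.17 between 1000 and 1500 bp. With SMAD2 the ratio spanned the narrowest range: the mean was 0.022 within 250 bp, -0.0029 between 500 and 1000 bp and -0.055 beyond 5000 bp. With SMAD4 the mean ratio was higher with distance. It was -0.040 within 250 bp, 0.064 between 500 and 1000 bp, 0.11 between 1000 and 1500 bp and 0.16 between 3000 and 4000 bp. The SE over genes was between 0.0060 and 0.016 in every interval, smaller than the SMAD1/5 dip within 500 bp and the SMAD4 difference between near and far probes. Replaced input signals moved with distance as well. They made up 13.7% of SMAD1/5 probes within 250 bp and 24.4% at 3000 to 4000 bp, and 8.73% and 15.1% of SMAD2 probes at the same distances. The proximal minus distal differences without them are given below.

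**Figure D1:**
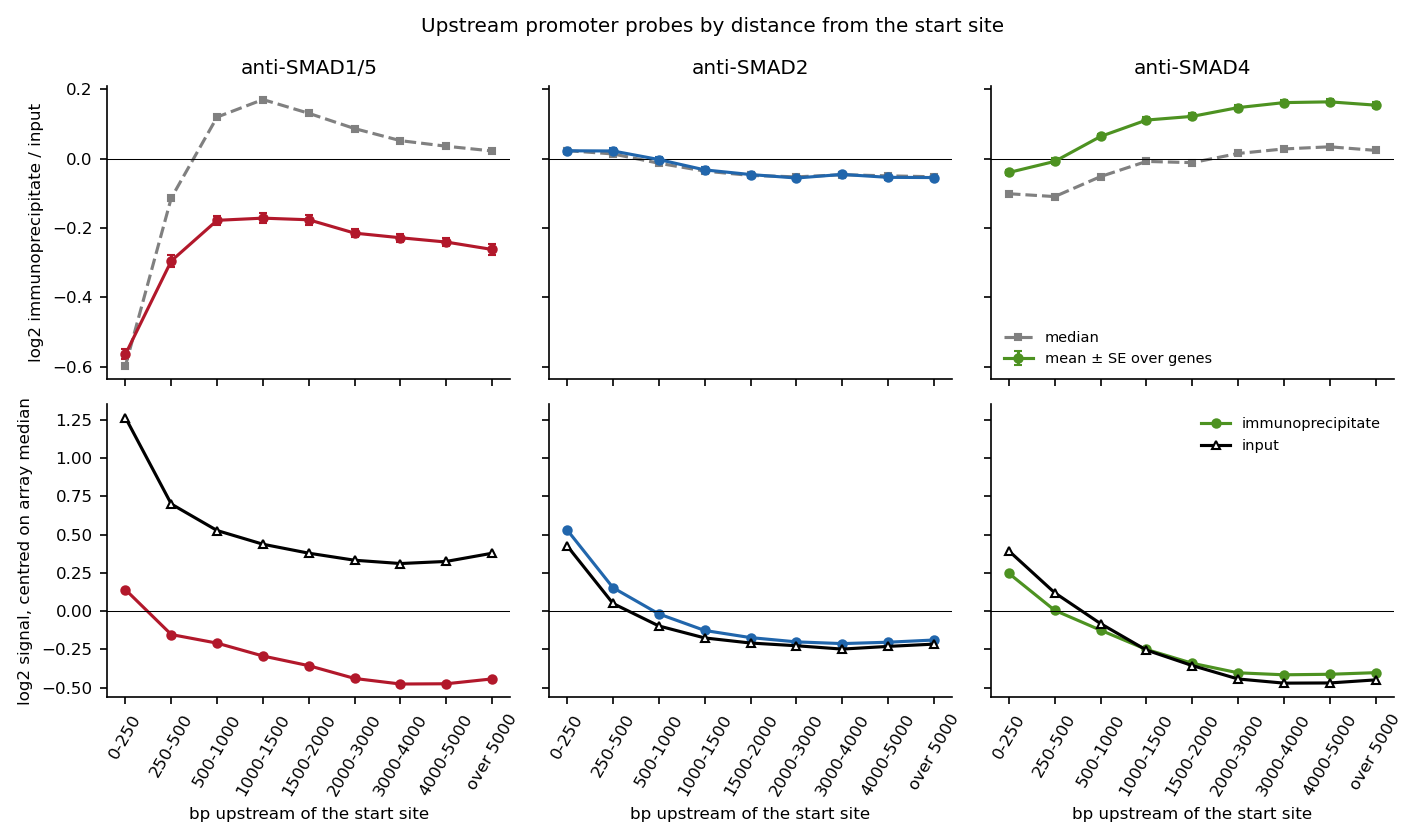
Mean signal of upstream promoter probes by distance from the start site (bp), one column per antibody. The upper panels show the log2 ratio of immunoprecipitate over input (coloured, mean ± SE over genes; grey, median) and the lower panels the 2 channels (coloured circles, immunoprecipitate; open triangles, input). Both channels are highest within 250 bp; the ratio there is -0.56 with SMAD1/5, 0.022 with SMAD2 and -0.040 with SMAD4.

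Proximal probes were brighter than distal probes in both channels with all 3 antibodies, and the ratio moved far less than either channel. The immunoprecipitate was higher at proximal than at distal probes by 0.37 ± 0.012 with SMAD1/5 (-0.094 against -0.47), by 0.39 ± 0.010 with SMAD2 (0.18 against -0.20) and by 0.43 ± 0.010 with SMAD4 (0.016 against -0.41). The input was higher by 0.45 ± 0.015 (0.78 against 0.33), 0.33 ± 0.010 (0.092 against -0.23) and 0.57 ± 0.012 (0.11 against -0.47). Both errors are SE over genes. Proximal minus distal, the log2 ratio was then -0.080 ± 0.012 with SMAD1/5 (-0.32 against -0.24), 0.062 ± 0.0060 with SMAD2 (0.011 against -0.051) and -0.15 ± 0.0069 with SMAD4 (0.015 against 0.16). A proximal excess of the immunoprecipitate over the input was thus measured with SMAD2 and not with SMAD1/5 or SMAD4, where the input difference was the larger one. On arrays 1 and 2, which share no probe, the ratio difference was -0.049 and -0.11 with SMAD1/5, 0.078 and 0.045 with SMAD2, and -0.15 and -0.14 with SMAD4.

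The sign was much the same from chromosome to chromosome. Over 20 chromosomes, the difference in the immunoprecipitate and in the input was above 0 on all 20 with each antibody. The ratio difference was below 0 on 18 with SMAD1/5, above 0 on 18 with SMAD2 and below 0 on 20 with SMAD4. The exceptions were chromosomes 6 and X with SMAD1/5 and chromosomes 13 and 18 with SMAD2. The X chromosome had the steepest proximal rise of the immunoprecipitate, 0.64, 0.63 and 0.90 with SMAD1/5, SMAD2 and SMAD4, and of the SMAD2 and SMAD4 input, 0.55 and 1.02. Chromosome 11 had the shallowest rise of the immunoprecipitate with all 3 antibodies, 0.16, 0.24 and 0.25. The ratio difference on the X chromosome, 0.031 with SMAD1/5, was the highest of the 20. The SMAD1/5 ratio itself was highest on chromosomes 8 and 11 in both zones. It averaged -0.11 and -0.094 at proximal probes and 0.016 and 0.025 at distal probes there. Over all chromosomes these means were -0.32 and -0.24. Genes named below that lie there include Klhl26 and 6030452D12Rik on chromosome 8. On chromosome 11 they include Tspoap1, Wipf2, Ptges3l, Fgf11, Dlx3 and Nog. The cause of this shift was not tested.

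**Figure D2:**
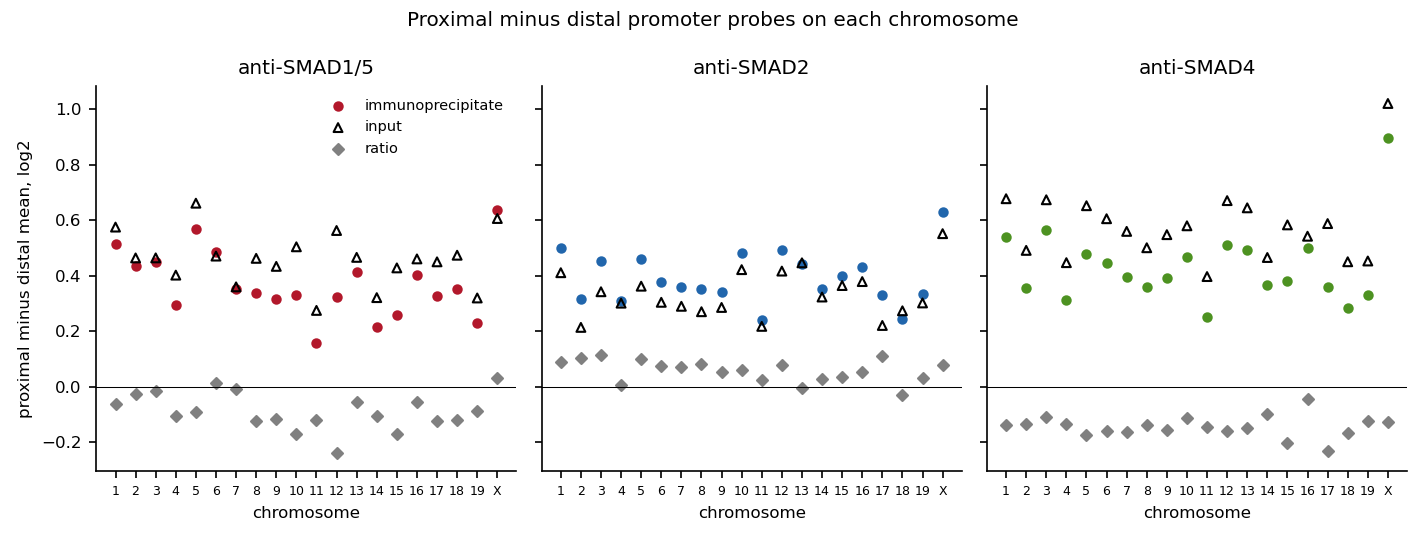
Proximal minus distal mean (log2) of upstream promoter probes on each of 20 chromosomes, one panel per antibody, for the immunoprecipitate (coloured circles), the input (open triangles) and their ratio (grey diamonds). Both channels lie above 0 on every chromosome, and the ratio lies below 0 on 20 chromosomes with SMAD4 and on 18 with SMAD1/5, and above 0 on 18 with SMAD2.

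Single probes at 1 or higher were not more frequent near the start than on the array as a whole, and probes at -1 or lower were somewhat more frequent there with SMAD1/5 and SMAD4. Of proximal probes, 25.9% had a log2 ratio of at least 1 with SMAD1/5, against 27.6% of distal probes and 27.5% of all experimental probes. With SMAD2 the shares were 12.4%, 11.8% and 12.7%, and with SMAD4 13.5%, 18.5% and 16.5%. At -1 or lower stood 33.5% of proximal, 30.5% of distal and 31% of all probes with SMAD1/5. With SMAD2 these were 12.4%, 14.9% and 13.5%, and with SMAD4 11.5%, 10.2% and 10.1%. The largest departure was with SMAD1/5 within 250 bp of the start, where 19.3% of probes were at least 1 and 40.2% were -1 or lower.

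Very bright inputs were more frequent with SMAD1/5 than with the other antibodies in both zones. With each antibody they were more frequent at proximal than at distal probes. An input at least 3 above the array median was found at 16.9% of proximal and 12.0% of distal probes with SMAD1/5. The SMAD2 input reached it at 4.37% of proximal and 2.67% of distal probes, and the SMAD4 input at 2.94% and 1.17%. The 10391 proximal probes past this level on the SMAD1/5 arrays had a median SMAD1/5 input of 4.75. At the same probes the median input was 1.81 with SMAD2 and 1.46 with SMAD4, and 22.7% and 14.6% of them were past the level there. Their median SMAD1/5 ratio was -2.23, low through the way they were chosen, against 0.028 with SMAD2 and -0.044 with SMAD4. Their median immunoprecipitate was 1.81, 1.83 and 1.23 with SMAD1/5, SMAD2 and SMAD4.

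Promoter probes were then set beside the other annotation classes at the same distance from the start. Within 250 bp, probes upstream of single genes had a mean SMAD1/5 ratio of -0.56, against -0.68 for probes inside genes and -0.43 for divergent promoters. With SMAD2 the 3 classes had 0.022, 0.034 and 0.043, and with SMAD4 -0.040, -0.033 and -0.20. The low SMAD1/5 ratio next to the start was thus shared by all 3 classes, and the low SMAD4 ratio was lower at divergent promoters. Both channels were lower at single-gene promoters than in either other class: the immunoprecipitate within 250 bp averaged 0.14, against 0.42 inside genes and 0.39 at divergent promoters with SMAD1/5. The SMAD2 values were 0.53, 0.85 and 0.71, and the SMAD4 values 0.25, 0.49 and 0.51.

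The proximal minus distal difference was also compared among probes of like input on the other antibodies' arrays. All experimental probes of an array were divided into 5 equal classes by the mean of those inputs. This leaves the antibody's own input out of the division and does not make it alike. Proximal minus distal, the own input still differed by 0.29 to 0.49 within the SMAD4 classes and by 0.063 to 0.24 within the SMAD1/5 classes. Within the SMAD2 classes it differed by -0.037 to 0.22. From the dimmest to the brightest class the SMAD4 ratio difference was -0.12, -0.14, -0.16, -0.15 and -0.15. The SMAD2 differences were 0.041, 0.037, 0.048, 0.037 and 0.031, and the SMAD1/5 differences -0.089, -0.045, -0.041, -0.10 and -0.084. The sign held in all 5 classes with each antibody, which is not a comparison at equal own input. Averaged over the classes with equal weight, the differences were -0.072, 0.039 and -0.14 with SMAD1/5, SMAD2 and SMAD4.

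The sign of the small ratio difference depended on how background and input were handled. With SMAD1/5 it was below 0 except after normexp background correction (0.047) and once each array's ratio was detrended on its own input (0.12). With SMAD2 it was above 0 except after normexp (-0.061) and with the mean input of the 3 antibodies as denominator (-0.062). With SMAD4 it was below 0 except after the same detrending (0.029). In the authors' deposited log2 tables it was -0.017, 0.082 and -0.066 with SMAD1/5, SMAD2 and SMAD4. Without replaced dim signals, an alternative chosen after the data were seen, it was -0.13, 0.064 and -0.15.

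**Figure D3:**
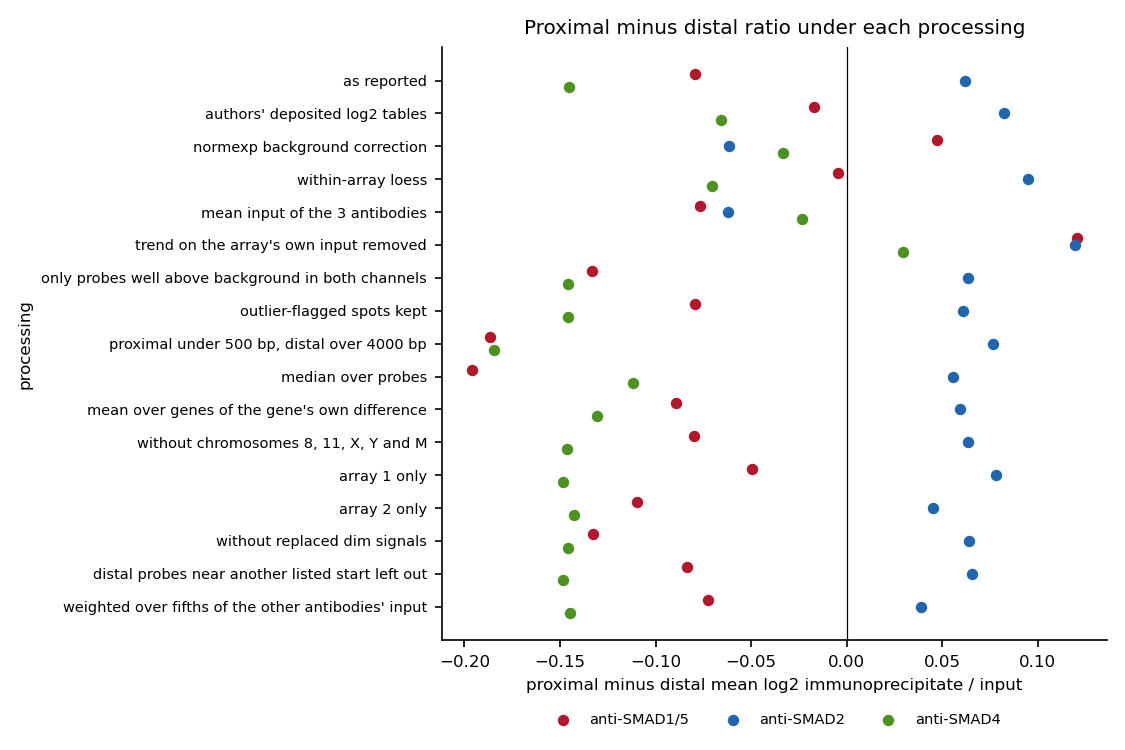
Proximal minus distal mean log2 ratio of upstream promoter probes (horizontal axis) under the reported processing and each alternative (rows), coloured by antibody. The SMAD2 points lie right of 0 except under normexp (-0.061) and the mean input (-0.062), and the SMAD1/5 and SMAD4 points lie left of 0 except under normexp (0.047, SMAD1/5) and detrending on the own input (0.12 and 0.029).

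Gene by gene, proximal means centred on the array median spread widely around 0. A gene was measured when at least 3 proximal probes were usable, which held for 12070 genes with SMAD1/5 and SMAD4 and for 11972 with SMAD2. The gene means ran from -6.69 to 3.52 with a median of -0.22 and an SD over genes of 1.10 with SMAD1/5. They ran from -2.27 to 2.27 with a median of 0.030 and an SD of 0.54 with SMAD2, and from -1.97 to 3.01 with a median of -0.035 and an SD of 0.59 with SMAD4. A proximal mean of at least 1 was reached by 1234 genes with SMAD1/5 (10.2% of those measured), 351 with SMAD2 (2.93%) and 729 with SMAD4 (6.04%). A mean of -1 or lower was found for 2908 genes with SMAD1/5 (24.1%), 469 with SMAD2 (3.92%) and 319 with SMAD4 (2.64%). These counts depended on the processing: in the authors' deposited log2 tables the genes at 1 or higher numbered 255, 128 and 250 with SMAD1/5, SMAD2 and SMAD4.

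Among genes with both zones measured, the proximal mean was above the gene's own distal mean in 4511 of 9429 genes with SMAD1/5 (47.8%), 5106 of 9331 with SMAD2 (54.7%) and 3929 of 9429 with SMAD4 (41.7%). In the same genes, a mean of at least 1 was found in the proximal zone of 907 genes and in the distal zone of 541 with SMAD1/5. The counts were 263 and 64 with SMAD2, and 580 and 495 with SMAD4. Means of -1 or lower were likewise more frequent in the proximal zone, with 2327 against 1674 genes, 360 against 228 and 237 against 82. A gene had a median of 5 proximal and 8 distal probes, so a distal mean averages over more probes.

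High gene ratios came with a dim input more than with a bright immunoprecipitate. Of the 729 genes at 1 or higher with SMAD4, 283 (38.8%) had an immunoprecipitate above the median of all measured genes and 23 (3.16%) had an input above it. Of the 351 genes with SMAD2 these numbers were 184 (52.4%) and 26 (7.41%). Of the 1234 genes with SMAD1/5 they were 1019 (82.6%) and 165 (13.4%). The median immunoprecipitate of these high genes was 0.65, 0.31 and -0.061 with SMAD1/5, SMAD2 and SMAD4, against 0.0099, 0.26 and 0.17 over all measured genes. Their median input was -0.20, -0.99 and -1.29, against 0.59, 0.12 and 0.26. A choice by the ratio favours a high immunoprecipitate and a low input alike, so these shares describe the list and test nothing.

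The 3 antibodies shared their channels and hardly their ratios. Over 11972 genes measured with all 3, Pearson's r of the proximal immunoprecipitate was 0.67 between SMAD1/5 and SMAD2, 0.71 between SMAD1/5 and SMAD4 and 0.86 between SMAD2 and SMAD4. For the input it was 0.51, 0.45 and 0.61, and for the log2 ratio 0.056, 0.014 and 0.068. These are descriptions across genes, which share probe sequence and base composition. Genes at 1 or higher with both SMAD1/5 and SMAD2 numbered 70, which is 5.74% of 1220 and 19.9% of 351. With SMAD1/5 and SMAD4 there were 81, 6.64% of 1220 and 11.2% of 722, and with SMAD2 and SMAD4 21, 5.98% of 351 and 2.91% of 722. Against the shares of 10.2%, 2.93% and 6.04% among all genes, the genes high with SMAD2 held more of the genes high with SMAD1/5, and the other overlaps were near or below those shares.

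Of 11972 genes measured with all 3 antibodies, 3 were at 1 or higher and 11 at -1 or lower with all of them. With SMAD1/5, SMAD2 and SMAD4 singly, 10.2%, 2.93% and 6.04% of genes were at 1 or higher. At -1 or lower these shares were 24.1%, 3.92% and 2.64%. Whether either count exceeds what the single shares give together was not tested. Among those at 1 or higher were Oas1f, a member of the interferon-induced oligoadenylate synthetase family, and Trim26, a tripartite motif protein. Both rested on 3 probes each. Trim26 averaged 2.97 ± 0.071 with SMAD1/5, 1.53 ± 1.22 with SMAD2 and 1.11 ± 0.58 with SMAD4 (SD over probes). Oas1f averaged 1.46, 1.28 and 1.17. The 11 genes at -1 or lower with all 3 were Appl2, Fmc1, Haus6, Ifna16, Kdm6a, Klrc1, Olfr1276, Olfr167, Olfr746, Pcdhgb1 and Sfswap. These genes were named after their values were seen.

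Genes were also ranked by the lowest of their 3 standardised proximal means, which does not require a mean of 1 with each antibody. Among the leading ones was Sh2d2a, an adaptor protein of T cells, with 1.44, 0.87 and 1.25 with SMAD1/5, SMAD2 and SMAD4. Ptges3l had 1.34, 0.97 and 1.30. Sesn2, a stress-induced sestrin, averaged 1.92 ± 1.73, 0.77 ± 0.75 and 1.43 ± 1.54 over 6 probes (SD). Its 3 farthest proximal probes, at 597, 706 and 814 bp, had SMAD4 ratios of 2.80, 3.37 and 1.99, while the nearest, at 88 bp, had 0.62 with SMAD4 and -1.36 with SMAD1/5. Ifih1, which encodes the cytosolic RNA sensor MDA5, had 2.01 ± 1.02 with SMAD4, 1.25 ± 2.26 with SMAD1/5 and 0.89 ± 0.30 with SMAD2. Fgf7, an epithelial growth factor, had 1.30, 0.76 and 1.22, Ifit2, an interferon-induced gene, 1.52, 1.06 and 0.74, and Fgf11, an intracellular fibroblast growth factor homologous factor, 1.58, 1.12 and 0.74.

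Among genes with at least 4 usable proximal probes, the SMAD1/5 mean was highest for Klhl26, a member of the kelch-like family. Its 5 probes, at 114, 258, 595, 740 and 930 bp, had SMAD1/5 ratios of 3.10, 3.66, 2.66, 2.56 and 2.98, averaging 2.99 ± 0.44. The SMAD2 and SMAD4 means of Klhl26 were 0.35 and -0.67, with every SMAD1/5 probe above every SMAD2 and SMAD4 probe. Here the SMAD1/5 immunoprecipitate was bright, at 3.26, and the input stood at 0.94. Ermn, which encodes ermin of myelinating cells, Abca4, a retinal lipid transporter, and Tspoap1 followed with SMAD1/5 means of 2.45 ± 0.49, 2.37 ± 0.25 and 2.36. The lowest SMAD1/5 means of these genes belonged to Sdr16c5, a retinol dehydrogenase, at -5.65 ± 1.73, Cdcp3 at -5.33 and Cyp2f2, a cytochrome P450 of the airway, at -5.23. The Sdr16c5 input was 6.09 on the SMAD1/5 arrays, against 0.53 on the SMAD2 and -0.44 on the SMAD4 arrays, while its immunoprecipitate was -0.24, 0.34 and -0.15.

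With SMAD2 the highest proximal mean of these genes was that of Fam124b, at 2.10 ± 2.34 over 4 probes. It rested on 1 probe: the SMAD2 ratios at 138, 258, 369 and 710 bp were 0.81, 5.59, 0.81 and 1.18, and the input signal of the second was a replaced dim value. Without replaced signals the Fam124b mean was 0.93. Smurf1, a ubiquitin ligase that targets the SMADs of the BMP branch, followed with a SMAD2 mean of 1.84 ± 0.92. Its 4 probes had SMAD2 ratios of 0.75, 1.64, 2.98 and 1.98, against SMAD4 ratios of -1.55, -0.60, -0.47 and -0.23 at the same probes. The Smurf1 SMAD2 input was dim, at -2.34, and its SMAD2 immunoprecipitate was -0.41. Smurf1 also had the third largest SMAD2 excess over its own distal mean, 2.43. Gpr26, an orphan receptor, Ecpas, a proteasome adaptor, and H2bc6, a histone H2B gene, had SMAD2 means of 1.77, 1.76 and 1.76. With the mean input of the 3 antibodies as denominator the Ecpas mean was -0.31. H2B genes resemble each other, and a probe can capture related copies. At the low end stood Pik3r1, a regulatory subunit of phosphoinositide 3-kinase, at -2.20, Sgms1, a sphingomyelin synthase, at -2.16, and Coq3, an enzyme of ubiquinone synthesis, at -2.04.

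With SMAD4 the highest proximal mean among genes with at least 4 probes was that of Spink2, a Kazal-type protease inhibitor of the male reproductive tract. Its probes at 241, 469, 581 and 735 bp had SMAD4 ratios of 2.19, 3.05, 3.99 and 2.00, averaging 2.81 ± 0.91. The SMAD1/5 ratios at the same probes were 2.90, 1.83, 2.33 and 1.40, and the SMAD2 ratios 0.35, 0.74, -0.47 and -0.84. Spink2 was thus high with SMAD4 and SMAD1/5 at all 4 probes and near 0 with SMAD2. Its SMAD4 immunoprecipitate was 1.65 and its SMAD4 input -1.04. The next SMAD4 means were 2.54 for 6030452D12Rik, 2.50 for Stx19, a syntaxin, and 2.45 for Itga8, an integrin subunit of the developing kidney. The olfactory receptor genes Olfr457 and Olfr145 had 2.45 and 2.41. The 6030452D12Rik mean was -0.11 with the mean input of the 3 antibodies, and the Olfr457 mean -0.052 after normexp. The lowest SMAD4 means were -1.97 for Olfr165, -1.88 for Prl8a1, a placental prolactin-like gene, and -1.68 for Olfr698.

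The largest excesses of the proximal over the distal mean came with low distal means or dim probes. Tex101, a germ cell surface protein, had SMAD1/5 means of 0.47 at proximal and -5.66 at distal probes, a difference of 6.14. Wipf2, an actin regulator, had 2.10 and -3.34, a difference of 5.44, and Zfp446, a zinc finger protein, had 1.59 and -3.82, a difference of 5.41. With SMAD2, Vamp1, a synaptic vesicle protein, had 1.38 and -1.68 (3.06). With SMAD4, Tas2r121, a bitter taste receptor, had 2.87 and -1.47 (4.34), with a proximal input of -5.50. Olfr1461 had 2.65 and -0.99 (3.64), and Olfr145 had 2.41 and -0.85 (3.25).

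Of 22 known BMP targets, all measured, 3 had a SMAD1/5 proximal mean of at least 1 (13.6%, beside 10.2% of all genes) and 6 were at -1 or lower (27.3%, beside 24.1%). The count of at least 1 was 0 in the authors' deposited log2 tables and after normexp, beside 2.11% and 2.46% of all genes. It was 4 (18.2%, beside 6.68%) with the mean input of the 3 antibodies. It was 1 after loess, after detrending and with bright probes only, beside 5.38%, 7.56% and 9.02% of all genes. With SMAD2 0 of 22 were past either limit, beside 2.93% and 3.92% of all genes. With SMAD4 1 was at least 1 (4.55%, beside 6.04%) and 2 were -1 or lower (9.09%, beside 2.64%). The list medians were -0.46, 0.089 and -0.32 with SMAD1/5, SMAD2 and SMAD4, beside all-gene medians of -0.22, 0.030 and -0.035. The SMAD4 median lay below that of all genes by 0.14 to 0.40 under the reported and the 6 other ways of scaling. This was not particular to BMP targets. The ribosomal protein and cell cycle lists had lower SMAD4 medians, -0.34 and -0.44. The BMP target list and the Activin and Nodal target list were chosen with results of these data known, and no test of either was made.

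Among the Id genes, which encode inhibitors of basic helix-loop-helix factors and are classical BMP targets, Id2 reached 1. Its 7 probes, between 69 and 964 bp, had SMAD1/5 ratios of -0.96, 0.25, 2.96, 0.79, 0.58, 1.35 and 3.12, a mean of 1.16 ± 1.47, with the highest at 488 and 964 bp. The Id2 means with SMAD2 and SMAD4 were 0.75 ± 1.32 and 0.062 ± 1.29. Id1 had SMAD1/5 ratios of 1.49, 1.87, -0.73 and 1.01 at 158, 267, 668 and 857 bp. The Id1 mean was 0.91 ± 1.15, and its SMAD2 and SMAD4 means were -0.014 and 0.44. Id3 averaged -1.57 ± 3.39 with SMAD1/5, a mean set by 3 of its 6 probes, at 296, 438 and 561 bp, with ratios of -5.21, -4.97 and -3.47. At those 3 probes the SMAD1/5 input was 6.59, 7.01 and 6.31, while the SMAD2 input was -0.94, -0.19 and 1.68. Id4 averaged 0.023, 0.092 and 0.29 with SMAD1/5, SMAD2 and SMAD4.

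Bambi, a BMP-induced pseudoreceptor, showed the same pattern with a SMAD1/5 mean of -4.88 ± 2.38. Its 4 SMAD1/5 ratios were -6.66, -7.06, -3.70 and -2.12. The Bambi input was 6.16 on the SMAD1/5 arrays, against 2.29 on the SMAD2 and 2.04 on the SMAD4 arrays, and its SMAD1/5 immunoprecipitate was 0.83. The inhibitory SMAD gene Smad7, induced by both branches, had means of -0.75, -0.67 and -1.32 with SMAD1/5, SMAD2 and SMAD4. Dlx3 and Gata3, both transcription factors of ectodermal lineages, had SMAD1/5 means of 1.37 ± 0.91 and 1.39 ± 1.49. Gata3 was low with SMAD4, at -1.11 ± 0.80. Cdx2, the caudal factor of trophectoderm, was the BMP target at 1 or higher with SMAD4, at 1.36 ± 0.66. The BMP antagonists Nog and Grem1 had SMAD1/5 means of -1.58 and -1.55, and Dlx5 had -2.05. After normexp the Nog mean was 0.25.

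Of 24 listed Activin and Nodal targets, 20 had promoter probes and 18 were measured. With SMAD2 0 of the 18 were at 1 or higher, beside 2.93% of all genes, and 0 at -1 or lower, beside 3.92%. The count at 1 or higher was 1 of 18 (5.56%) after normexp and after loess, beside 4.54% and 1.6% of all genes. The SMAD2 median was 0.10. With SMAD1/5 4 of 18 were at 1 or higher (22.2%, beside 10.2%) and 3 at -1 or lower (16.7%, beside 24.1%). With SMAD4 these were 0 (beside 6.04%) and 1 (5.56%, beside 2.64%). The SMAD1/5 count at 1 or higher was 0 of 18 in the authors' deposited log2 tables, after normexp and after loess. The shares of all genes there were 2.11%, 2.46% and 5.38%. The count was 1 (5.56%, beside 7.56%) after detrending and 2 (11.1%, beside 6.68%) with the mean input of the 3 antibodies. The 4 were Foxa2 (1.52 ± 1.12), Mixl1 (1.31 ± 1.86), Junb (1.20) and Ccn2 (1.16). Foxa2 and Mixl1 are regulators of endoderm and mesendoderm, Junb is an AP-1 subunit and Ccn2 encodes connective tissue growth factor. Junb and Foxa2 also had the highest SMAD2 means of the list, 0.97 and 0.95.

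The Nodal probes at 105, 301 and 970 bp had SMAD2 ratios of -0.57, 0.23 and 0.72, SMAD1/5 ratios of -0.85, -1.54 and 1.40 and SMAD4 ratios of -0.63, -0.64 and -0.25. The Nodal means were 0.12 ± 0.65, -0.33 ± 1.54 and -0.51 ± 0.23 in that order. Lefty1 had proximal means of 0.42, -0.57 and -0.97 with SMAD1/5, SMAD2 and SMAD4, against distal means of 1.94, 1.33 and 0.048. Lefty2 ran the other way with SMAD2 and SMAD4, with proximal means of -0.22 and 0.60, against distal means of -2.15 and -2.07. The Lefty1 and Lefty2 values therefore differed between zones more than they differed from 0 near the start. The 2 genes are close in sequence, and a probe can capture related copies.

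**Figure D4:**
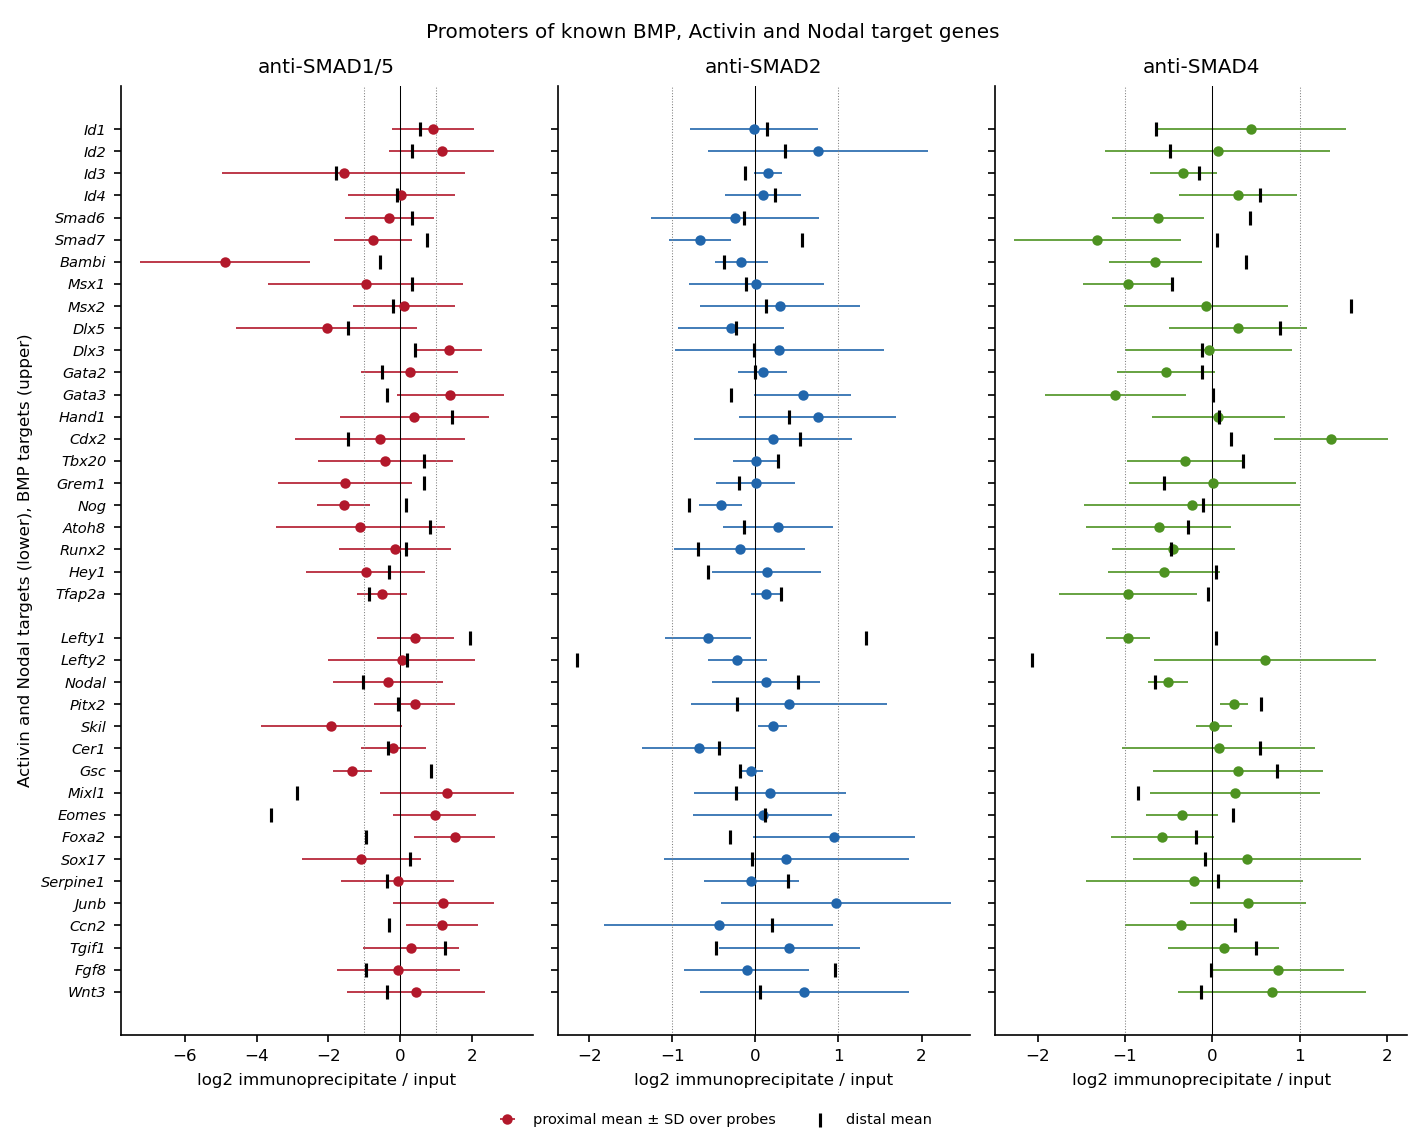
Proximal mean log2 ratio of immunoprecipitate over input (circles, with SD over probes) and distal mean (black ticks) of known BMP targets (upper block) and Activin and Nodal targets (lower block), one panel per antibody; dotted lines mark -1 and 1. With SMAD2 no circle lies past a dotted line, and with SMAD1/5 Bambi lies lowest at -4.88.

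The promoters of the core pluripotency factors were low with SMAD1/5 and near 0 with the other antibodies. Pou5f1, Sox2 and Klf4 had SMAD1/5 means of -1.68 ± 1.92, -2.78 ± 2.10 and -1.61 ± 1.90, SMAD2 means of -0.28, 0.25 and 0.089, and SMAD4 means of 0.19, 0.10 and -0.11. Their SMAD1/5 input was 1.47, 2.88 and 3.90, against 0.96, 0.21 and 0.31 on the SMAD2 arrays. With the mean input of the 3 antibodies as denominator the Klf4 SMAD1/5 mean was 0.21. Of 24 measured pluripotency genes, 3 were at 1 or higher (12.5%, beside 10.2% of all genes) and 9 at -1 or lower (37.5%, beside 24.1%) with SMAD1/5. With SMAD2 1 was at 1 or higher and 2 at -1 or lower (4.17% and 8.33%, beside 2.93% and 3.92%), and with SMAD4 2 and 0 (8.33%, beside 6.04%, and 0%, beside 2.64%). After detrending 4 were at -1 or lower with SMAD1/5 (16.7%, beside 14.1%). Esrrb, an orphan nuclear receptor of naive cells, was the gene at 1 or higher with SMAD2, at 1.10 ± 0.66, with 0.95 ± 1.27 with SMAD4. Tfcp2l1 and Tcl1, also known for the naive state, had SMAD4 means of 1.35 ± 1.61 and 1.12 ± 1.28. After normexp the Tfcp2l1 mean was -0.011.

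Genes of the pathway itself, its ligands, receptors, SMADs and inhibitors, included none of 21 at 1 or higher with SMAD1/5 or SMAD2. The shares of all genes were 10.2% and 2.93%. At -1 or lower with SMAD1/5 stood 8 (38.1%, beside 24.1% of all genes). That count was 1 (4.76%) in the authors' deposited log2 tables and with the mean input of the 3 antibodies, beside 9.78% and 13.3%. With SMAD4 2 were at 1 or higher (9.52%, beside 6.04%), which were the Activin subunit gene Inhba at 1.37 ± 0.63 and the BMP receptor gene Acvrl1 at 1.11 ± 1.04. The SMAD4 count was 0 of 21 in the authors' deposited log2 tables, after normexp, with the mean input and after detrending. The shares of all genes there were 2.07%, 1.06%, 2.34% and 1.44%. The ligand gene Tgfb2 had 0.47, 0.86 and 0.33 with SMAD1/5, SMAD2 and SMAD4. Of 19 cell cycle genes, 2 were at 1 or higher with SMAD1/5 (10.5%, beside 10.2% of all genes) and 0 with SMAD2 or SMAD4 (beside 2.93% and 6.04%). Ccnd1, a G1 cyclin, had a SMAD1/5 mean of 2.00 ± 0.46 over 3 probes, with 0.13 and -0.70 with SMAD2 and SMAD4. Of 30 Hox genes 3 (10%, beside 10.2%), 0 (beside 2.93%) and 2 (6.67%, beside 6.04%) were at 1 or higher with SMAD1/5, SMAD2 and SMAD4, among them Hoxb13 (SMAD1/5, 1.43) and Hoxa3 (SMAD4, 1.06).

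Olfactory receptor promoters were dim in every channel: over 625 measured genes (623 with SMAD2) the median immunoprecipitate was -1.55, -1.56 and -1.95 with SMAD1/5, SMAD2 and SMAD4, beside 0.0099, 0.26 and 0.17 over all genes. Their median input was -0.66, -1.13 and -1.80, beside 0.59, 0.12 and 0.26. With SMAD1/5 4% were at 1 or higher (beside 10.2% of all genes) and 35.2% at -1 or lower (beside 24.1%), and with SMAD2 0.482% (beside 2.93%) and 11.6% (beside 3.92%). With SMAD4 these shares were 5.76% (beside 6.04%) and 7.68% (beside 2.64%). After normexp the SMAD2 shares turned, with 20.1% at 1 or higher, beside 4.54% of all genes. Minus the median of all genes, the SMAD4 median of this family lay between -0.77 and -0.094 and the SMAD2 median between -0.69 and -0.095 under the reported and 6 other ways of scaling. The SMAD1/5 median lay below that of all genes except among probes well above background (0.066). Olfactory receptor genes resemble each other, and a probe can capture related copies.

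Of 38 keratin promoters 8 (21.1%, beside 6.04% of all genes) were at 1 or higher and 0 (beside 2.64%) at -1 or lower with SMAD4. Their SMAD4 median of 0.30 exceeded that of all genes by 0.33, and by 0.33 to 0.50 under the 6 other ways of scaling. It was not particular to the proximal zone, since their distal SMAD4 median was 0.24. The proximal SMAD4 mean was above the gene's own distal mean in 15 of 34 keratin genes, beside 41.7% of all genes. The count at 1 or higher was 4 (10.5%, beside 2.07%) in the authors' deposited log2 tables and 6 (15.8%, beside 4.46%) after loess. It was 1 of 38 (2.63%) after normexp, with the mean input of the 3 antibodies and after detrending, beside 1.06%, 2.34% and 1.44% of all genes. Krt73, Krt72 and Krt75, all expressed in the hair follicle, had SMAD4 means of 1.41 ± 0.60, 1.33 ± 0.11 and 1.08 ± 0.92. Of 50 ribosomal protein promoters 0 (beside 6.04%) were at 1 or higher and 7 (14%, beside 2.64%) at -1 or lower with SMAD4, with a median of -0.34. That median lay below the all-gene median by 0.053 to 0.31 under these ways of scaling. The count at -1 or lower was 4 (8%, beside 7.3% of all genes) with the mean input of the 3 antibodies and 2 (4%, beside 4.5%) after detrending. With SMAD1/5 and SMAD2 6 and 2 of the 50 were at 1 or higher (12% and 4%, beside 10.2% and 2.93%). Promoters named for miRNAs, a list chosen after the files were seen, had 23 of 182 (12.6%, beside 6.04% of all genes) at 1 or higher with SMAD4. With SMAD1/5 there were 18 of 182 (9.89%, beside 10.2%) and with SMAD2 6 of 181 (3.31%, beside 2.93%). The SMAD4 count was 9 (4.95%, beside 2.07%) in the authors' deposited log2 tables and 4 (2.2%, beside 1.06%) after normexp. The miRNA SMAD4 median was 0.081 at proximal and 0.18 at distal probes. In 65 of 137 miRNA genes the proximal SMAD4 mean was above the gene's own distal mean.

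Promoter GC content had a higher linear correlation with both channels than with the ratio. The SMAD1/5 ratio did not follow a line and was lowest in the lowest and highest GC classes. A promoter sequence on the same chromosome was found in the RefSeq table for 9216 of 11972 measured genes (77.0%), too few to speak for the members, so this check is void for them as a whole and its values describe these 9216 genes only. Pearson's r of promoter GC content with the proximal immunoprecipitate was 0.38, 0.49 and 0.50 with SMAD1/5, SMAD2 and SMAD4. With the input it was 0.33, 0.40 and 0.45, and with the log2 ratio -0.023, 0.16 and -0.036. In 5 equal classes of GC content from low to high, the SMAD1/5 input averaged 0.079, 0.58, 0.89, 1.08 and 1.35 and the SMAD1/5 ratio -0.38, -0.18, -0.21, -0.30 and -0.53. The SMAD2 ratio averaged -0.19, 0.057, 0.079, 0.085 and 0.038, and the SMAD4 ratio 0.036, 0.086, -0.021, -0.047 and -0.038. The lowest class ran from 21.3% to 48.3% GC and the highest from 68% to 89.3%.

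Promoters rich in CpG (GC of at least 55% and a CpG observed over expected ratio of at least 0.6) numbered 4311, against 4905 poor in CpG. The proximal SMAD4 ratio averaged -0.083 ± 0.0083 in CpG-rich and 0.079 ± 0.0089 in CpG-poor promoters (SE over genes), and 3.57% and 7.89% of these genes were at 1 or higher. The SMAD2 ratio averaged 0.056 and -0.025, and the SMAD1/5 ratio -0.33 and -0.32. The proximal minus distal difference of a gene was more negative in CpG-rich promoters with SMAD1/5 (-0.17 ± 0.024 against -0.015 ± 0.023) and with SMAD4 (-0.22 ± 0.012 against -0.069 ± 0.013). With SMAD2 it was 0.079 and 0.058. The SMAD4 immunoprecipitate averaged 0.30 in CpG-rich and -0.25 in CpG-poor promoters, and its input 0.49 and -0.22.

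**Figure D5:**
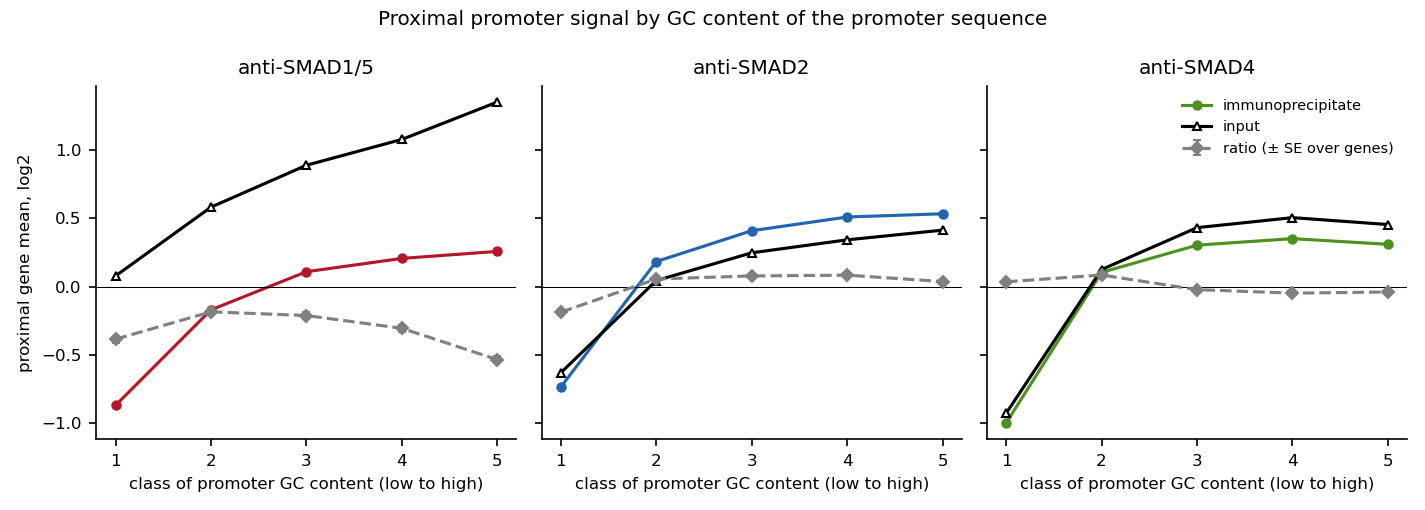
Mean proximal signal (log2, vertical axis) of promoter genes in 5 equal classes of promoter GC content from low to high, one panel per antibody, for the immunoprecipitate (coloured circles), the input (open triangles) and their ratio (grey diamonds, ± SE over genes). Both channels are lowest in the lowest class with each antibody, where the SMAD1/5 input is 0.079, against 1.35 in the highest, and the SMAD1/5 ratio is lowest in the highest class, at -0.53.

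Promoters with and without CAGAC differed by less than 0.1 in the mean proximal ratio in each comparison below. CAGAC on either strand was found in 48.6% of these 9216 promoters. Among CpG-rich promoters with and without CAGAC the SMAD1/5 ratio averaged -0.31 and -0.34, the SMAD2 ratio 0.063 and 0.052 and the SMAD4 ratio -0.083 and -0.084. Among CpG-poor promoters the averages were -0.29 and -0.34 with SMAD1/5, -0.0017 and -0.050 with SMAD2 and 0.095 and 0.062 with SMAD4. GGCGCC was found in 17.8% of the promoters. Among CpG-rich ones with and without GGCGCC the SMAD1/5 ratio averaged -0.41 ± 0.029 (1346 genes) and -0.29 ± 0.020 (2965 genes), the SMAD2 ratio 0.044 and 0.062 and the SMAD4 ratio -0.094 and -0.079. Among CpG-poor ones the SMAD1/5 difference ran the other way, with -0.24 ± 0.061 (290 genes) and -0.32 ± 0.017 (4615 genes). There the SMAD2 ratio averaged 0.11 with and -0.033 without GGCGCC, and the SMAD4 ratio 0.013 and 0.083. GTCTAGAC was found in 0.195% of the promoters, too few to compare. The 300 bases searched cover the part of the proximal zone next to the start and not the rest of it.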

How the data were processed

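The 6 arrays were grouped by antibody from their titles. Per the file headers, the deposited intensity of each spot and channel was made with Agilent Feature Extraction, version 9.1.3.1 with protocol CGH-v4_91 for SMAD1/5 and SMAD2 and version 9.5.3.1 with a ChIP protocol for SMAD4. Per the file headers, the processed intensity is background-subtracted and dye-normalised. SMAD2 arrays were scanned at 10 micrometres per pixel and the others at 5, per the file headers. The deposited files hold other columns, flags of 0 or 1 for outlying, saturated, dim or replaced signals. The authors deposited log2 value tables as well, for which the submitters' processing notes name limma without a version; they served as an alternative. No source used here states the genome build.

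From the files, log2 of processed red (immunoprecipitate) over green (input) was centred on each array's median, without loess or scaling. Spots with an outlier flag were left out, between 0.00911% and 1.71% per array. Distances came from the start sites in the SMAD4 files. SEs of zone differences were clustered by gene, where each gene's probes had been planned to be averaged first; that average is among the alternatives. Of 14267 names, 13466 were updated by accession, 262 matched a symbol, 317 an older symbol and 222 were kept; 20 symbols on several chromosomes were left out of gene means. With 1 biological replicate per antibody, no test was made and no p-value is given. The code was tested on simulated data. Python 3.11.15, numpy 2.4.6, pandas 2.3.3, matplotlib 3.10.9, R 4.3.3 and limma 3.58.1 were used.

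Genes were named by rule, and a few that it names are not reported here. Per antibody these were the 6 highest and 3 lowest proximal means with at least 4 probes, and the 3 largest excesses over the distal mean with at least 3 probes of each zone. Added to them were the 8 genes with the highest value of the lowest of their 3 standardised proximal means, the measured BMP, Activin and Nodal targets with Pou5f1, Sox2 and Klf4, and the 3 leading members of each other list. The members, the lists and the rule were chosen with earlier results of these data known. Alternatives were the authors' log2 tables, normexp (offset 50), loess, the mean input of the 3 antibodies and detrending on the own input (running median over 2001 probes). Further ones were bright probes only, outlier-flagged spots kept, other zones, medians, gene averages and single arrays. Others left out chromosomes 8, 11, X, Y and M or asked for at least 4 proximal probes. Added after the data were seen were 3 further ones.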

Additional observations from a re-analysis of the deposited data

Results flagged for a closer look

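Under the reported processing, the proximal minus distal log2 ratio of upstream promoter probes ran in opposite directions with different antibodies. It was above 0 on both SMAD2 arrays (0.078 and 0.045) and below 0 on both SMAD1/5 arrays (-0.049 and -0.11), and the difference between the antibodies was 0.14. It was also below 0 on both SMAD4 arrays (-0.15 and -0.14), with a difference between SMAD2 and SMAD4 of 0.21. Neither difference was tested, since each antibody has 1 biological replicate. The arrays of an antibody carry different probes of the same sample and are not replicates of each other. The opposite directions also depended on the processing, with values given below. Normexp changed the sign with SMAD1/5 and SMAD2, and detrending on the own input changed it with SMAD1/5 and SMAD4. With the mean input of the antibodies as denominator the SMAD2 difference was below 0.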

How the results depend on the processing

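No paired analysis was possible because each antibody has 1 biological replicate and no result comes from a test. Of 138 values of the 12 main results under alternatives, 77 stayed, 56 moved and 5 reversed. Staying meant lying within an interval set by the SE over genes of the reported value, or, for counts, within 1.5 times. Of 697 values of 101 gene means or differences, 540 stayed within the SD over probes, 145 moved and 12 reversed. The causes were not tested.

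The proximal minus distal log2 ratios with SMAD1/5, SMAD2 and SMAD4 were -0.017, 0.082 and -0.066 in the authors' deposited log2 tables, 0.047, -0.061 and -0.034 after normexp, and -0.0047, 0.095 and -0.070 after loess. After detrending on the own input they were 0.12, 0.12 and 0.029, and with zones under 500 and over 4000 bp -0.19, 0.076 and -0.18. With the mean input of the 3 antibodies the SMAD2 and SMAD4 ratios were -0.062 and -0.023. With medians the SMAD1/5 and SMAD4 ratios were -0.20 and -0.11, and as a mean over genes the SMAD4 ratio was -0.13. The SMAD1/5 ratio was -0.13 with bright probes only and -0.13 without replaced dim signals. On arrays 1 and 2 it was -0.049 and -0.11, and the SMAD2 ratio 0.078 and 0.045. Averaged over 5 classes of the other antibodies' input the SMAD2 ratio was 0.039.

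The immunoprecipitate differences with SMAD1/5, SMAD2 and SMAD4 were 0.46, 0.55 and 0.54 with the narrower zones. With SMAD1/5 and SMAD2 they were 0.23 and 0.31 with bright probes only and 0.23 and 0.31 without replaced signals. With medians they were 0.31 for SMAD1/5 and 0.39 for SMAD4, and with SMAD1/5 0.43 on array 1 and 0.32 on array 2. The input differences were 0.65, 0.47 and 0.72 with the narrower zones. With SMAD1/5 and SMAD2 they were 0.37 and 0.25 with bright probes only and 0.36 and 0.25 without replaced signals, and with medians 0.37 for SMAD2. Both channels stayed above 0 under every alternative run.

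Genes with a proximal mean of at least 1 with SMAD1/5, SMAD2 and SMAD4 numbered 255, 128 and 250 in the authors' tables, 297, 543 and 128 after normexp, and 806, 74 and 282 with the mean input. After loess there were 649 with SMAD1/5 and 192 with SMAD2, and after detrending 107 with SMAD2 and 174 with SMAD4. With SMAD2 there were 200 with bright probes only and 204 without replaced signals.

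Single gene means turned in sign as follows. The SMAD1/5 mean of Skil was 0.12 in the authors' tables, 0.25 after loess, 0.20 with the mean input and 0.72 after detrending. With the mean input the SMAD1/5 means of Klf4 and Tcl1 were 0.21 and 0.14, the SMAD2 mean of Ecpas -0.31 and the SMAD4 mean of 6030452D12Rik -0.11, and after detrending Klf4 had 0.33. After normexp the SMAD1/5 mean of Nog was 0.25, and the SMAD4 means of Olfr457 and Tfcp2l1 were -0.052 and -0.011.

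On the SMAD1/5 arrays 69.9% and 85.6% of probes had an input well above background, which limits low inputs and the ratios over them. These shares were 87.5% and 84.7% with SMAD2 and 99.5% and 99.6% with SMAD4. None of the 103 named genes had all its proximal probes below that level in either channel. Without a dye swap, dye and enrichment cannot be told apart.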
